A study of Homo sapiens with 6 samples.

Results

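The zinc finger genes of human chromosome 19 were followed in polyadenylated RNA of BEAS-2B, a line derived from immortalised human bronchial epithelium. Members were the genes on chromosome 19 whose symbol is ZNF or ZFP followed by a number and at most 1 letter, with 10 or more counts in at least 3 of the 6 libraries. This rule took 234 of the 268 chromosome 19 genes with such a symbol, and of the 61806 genes listed for the series. Of the other 34, 11 had 0 counts in all 6 libraries. All 234 were among the 15451 genes with enough counts to be tested. The members were chosen by their counts over the libraries, so their levels are given as a description, without a test.

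The series compared 3 libraries of cells treated with 15-KETE with 3 libraries of control cells, each numbered 1 to 3. 15-KETE (15-oxo-ETE) is a lipid made by oxidation of arachidonic acid and carries an electrophilic unsaturated ketone. All 6 libraries came from the same line, which had no other labelled treatment, and dose, time and vehicle are not given in the sources used here. The labels do not state whether replicates came from separate cultures, and p-values therefore reflect the spread among these libraries alone, which may be technical.

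Most zinc finger proteins of chromosome 19 pair an array of DNA-binding C2H2 fingers with a KRAB domain. The KRAB domain binds the corepressor TRIM28, which brings in the histone H3 lysine 9 methyltransferase SETDB1, HP1 proteins and the NuRD complex. Proteins of this family are best known for silencing transposable elements, and their genes lie in tandem clusters that arose by repeated duplication. Of the 234 members, 215 carried KEGG's KRAB zinc finger entry in the table's orthology column and 19 did not. That entry is an annotation of the family and not a test for the domain. ZNF146, which has the entry, is known as a protein made almost wholly of fingers, and ZNF274, which lacks it, is known to hold a KRAB domain. The symbol pattern also caught ZFP36, whose CCCH fingers bind AU-rich RNA and promote its decay, and which is no C2H2 protein. In GENCODE release 29, 228 members were protein coding and 6 were transcribed pseudogenes.

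The libraries held between 16844781 and 22876808 counts, and the control library numbered 2 stood apart from the other 5. Its scaling factor by trimmed means of log ratios (TMM) was 0.851, against 0.99 to 1.05 in the others, and it was the lowest of the 6 libraries for 34.0% of all tested genes and the highest for 34.5%. Levels per length are given as FPKM, fragments scaled to exonic size and library total. The keratin KRT7 measured 135.2, 315.33 and 160.55 FPKM in the 15-KETE libraries numbered 1, 2 and 3, against 160.5, 441.55 and 170.93 FPKM in the controls. The 8 epithelial markers listed were all detected and summed to 262.1 to 534.6 FPKM in 15-KETE libraries and 295.3 to 748.2 FPKM in controls, with CDH1 and EPCAM at no more than 1.09 FPKM in any library. Of 7 bronchial and alveolar lineage markers, 1, FOXA1, had enough counts to be tested, and SCGB1A1 was at 0 in all 6. The mesenchymal markers VIM, FN1 and SPARC were abundant, and the endothelial list summed to at most 0.17 FPKM. The 5 leukocyte markers summed to 3.30 to 8.63 FPKM in 15-KETE libraries and 3.53 to 7.92 FPKM in controls, nearly all of it CD14, while PTPRC did not exceed 0.03 FPKM.

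The members were expressed at low levels, with a median exonic size above that of all tested genes. The mean FPKM of a member over the 6 libraries had a median of 2.10, with quartiles of 1.02 and 3.51, against a median of 4.28 over all tested genes and 3.20 over the 252 tested zinc finger genes of other chromosomes. Above 10 FPKM stood 4 members, and 57 lay below 1 FPKM. The lower quartile over all tested genes was 1.097 FPKM, near the 1.02 of the members. The count below 1 FPKM therefore does not set the members apart, and their lower level showed at the median. The exonic size of the members had a median of 5535.5 bases and quartiles of 3820 and 7192 bases, against a median of 4892 bases over all tested genes and 3642.5 bases over the 858 other tested genes of chromosome 19. The quartiles over all tested genes were 2824 and 7671.5 bases, so the members were the longer at the lower quartile and the median, but not at the upper quartile. Zinc finger genes of other chromosomes were as long as the members, with a median of 5577 bases. The range over the members ran from 1407 bases in ZNF887P, a transcribed pseudogene, to 14132 bases in ZNF431. Exonic size here is a value per gene that joins all its annotated exons, not the length of a transcript.

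The members with and without the KRAB entry differed in length and in base composition. Those with the entry had a median exonic size of 5653 bases and a median G + C content of 43.7%, and those without it 3238 bases and 63.1%. Over all tested genes the median G + C content was 48.8%, and over the other tested genes of chromosome 19 it was 59.8%. Among the 19, ZNF507 stood at 40.7% G + C and 11239 bases, and ZNF274 at 53.4% and 8333 bases.

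**Figure D1:**
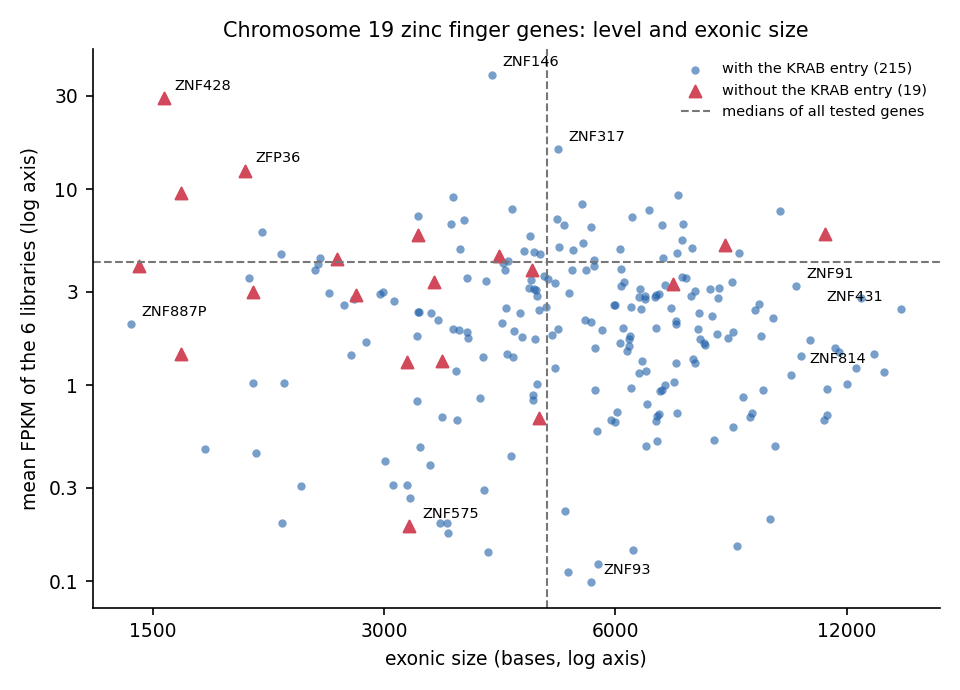
Mean FPKM over the 6 libraries against exonic size in bases, both on log axes, for the 234 zinc finger genes of chromosome 19. Circles are the 215 genes with the KRAB entry and triangles the 19 without it. Dashed lines mark the medians of all tested genes, 4892 bases and 4.28 FPKM, and most members lie below the level line.

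The most abundant member per length was ZNF146 on chr19:36214602-36238771. It measured 39.15, 22.82 and 54.64 FPKM in the 15-KETE libraries numbered 1, 2 and 3, against 34.36, 23.01 and 57.24 FPKM in the controls. In both groups the library numbered 3 was the highest and the library numbered 2 the lowest. The next was ZNF428, which lacks the KRAB entry, with 27.47, 27.27 and 19.87 FPKM in 15-KETE libraries and 31.85, 50.2 and 18.85 FPKM in controls. There the order of the numbers was the opposite among the controls, with control 2 the highest and control 3 the lowest. ZNF317 averaged 16.9 ± 2.19 FPKM in 15-KETE libraries, against 15.2 ± 4.999 FPKM in controls (SD, n = 3 each). ZFP36 averaged 12.3 ± 1.40 and 12.6 ± 1.36 FPKM in the same order. ZNF581 averaged 9.26 ± 4.42 FPKM in 15-KETE libraries and 9.80 ± 3.67 FPKM in controls. In all 5 the SD of the controls exceeded the difference between the group means.

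Low members stood near the limit of detection. ZNF93, which represses LINE-1 elements, had 12, 3 and 8 counts in 15-KETE libraries and 14, 3 and 20 in controls, a mean of 0.0983 FPKM over the 6 libraries and the lowest of the members. Just inside the count rule lay ZNF625, with 12, 10 and 10 counts in 15-KETE libraries and 4, 3 and 10 in controls, and ZNF20, with 12, 6 and 15 against 9, 20 and 5. Just outside lay ZNF497, with 6, 11 and 12 counts against 7, 1 and 9, and ZNF347, with 4, 7 and 11 against 9, 2 and 15. A filter of 10 counts in all 6 libraries would have kept 220 members.

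Promoter sequence was available in RefSeq's promoter windows on GRCh38.p14, which run from 250 bases before a gene's start to 50 bases after it, for 202 of the 234 members in 250 windows. The 200 bases before RefSeq's start are shown for the 2 most abundant members, for ZNF91 as a repressor of transposable elements, and for ZNF587. The CPM of ZNF587 was higher in every 15-KETE library than in any control. For ZNF146 RefSeq's start lies inside the gene's coordinates given above, so the stretch shown falls within them and not before them. Capitals mark the ETS family core CCGGAAG, the CCAAT box and the start of the ZNF143 motif, ACTACA, each searched on both strands, so that CTTCCGG and TGTAGT are the reverse complements. No 2 of these motifs overlap in the stretches shown, which are written 5′ to 3′ on the gene's strand.
ZNF146 (chr19:36214906-36215105, plus strand): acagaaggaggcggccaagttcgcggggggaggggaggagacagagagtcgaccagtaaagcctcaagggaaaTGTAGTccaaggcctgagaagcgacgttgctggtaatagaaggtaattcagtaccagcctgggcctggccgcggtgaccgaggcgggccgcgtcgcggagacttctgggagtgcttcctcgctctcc
ZNF428 (chr19:43619630-43619829, minus strand): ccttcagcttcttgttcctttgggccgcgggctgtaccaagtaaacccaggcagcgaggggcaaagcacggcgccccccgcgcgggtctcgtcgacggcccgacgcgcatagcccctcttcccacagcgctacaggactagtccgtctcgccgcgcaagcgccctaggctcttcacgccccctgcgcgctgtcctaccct
ZNF587 (chr19:57849659-57849858, plus strand): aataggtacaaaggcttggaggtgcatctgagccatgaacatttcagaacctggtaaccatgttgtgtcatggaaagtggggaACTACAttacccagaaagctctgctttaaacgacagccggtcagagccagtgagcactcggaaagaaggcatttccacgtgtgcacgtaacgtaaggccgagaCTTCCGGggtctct
ZNF91 (chr19:23395472-23395671, minus strand): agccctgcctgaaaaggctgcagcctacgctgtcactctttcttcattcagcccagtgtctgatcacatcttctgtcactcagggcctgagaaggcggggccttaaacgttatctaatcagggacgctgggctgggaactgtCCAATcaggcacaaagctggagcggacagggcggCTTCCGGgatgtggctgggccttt

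The ETS core was in 100 of the members' 250 windows (40.0%), against 10.3% of all 35116 windows and 30.3% of the 274 windows of zinc finger genes on other chromosomes. ACTACA was in 28.0% of the members' windows, against 8.46% of all windows and 13.9% of those of the other zinc finger genes. CCAAT was in 50.4% against 34.6% and 39.1%. The TATA box TATAAA was in 2.8% of the members' windows, against 11.5% of all windows and 5.47% of those of the other zinc finger genes. The GC box GGGCGG was in 62.4%, against 44.95% and 60.6%. These motifs were chosen after the shares of several had been seen, a match is a run of letters and not a bound site, and windows of duplicated genes share ancestry.

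No member passed the test of 15-KETE against control. At an adjusted p under 0.05 (edgeR's quasi-likelihood test with Benjamini-Hochberg adjustment over all tested genes), 0 of 234 members were called, against 0% of the 15451 tested genes, and every named member had an adjusted p of 0.9996. At an unadjusted p under 0.05 stood 0 members, against 25 of all tested genes, 0.162%. DESeq2 and limma-trend also called 0 genes, with 31 and 73 of all tested genes and 0 members at an unadjusted p under 0.05. The replicate numbers were taken to pair the libraries, which no label states. With the number as a block in the same test 0 members were called as well, with 4 members at an unadjusted p under 0.05 (1.71%), against 4.71% of all tested genes.

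The members' log2 fold changes, 15-KETE over control, had a median of 0.06 and ran from -0.87 to 0.78. Above 0 lay 150 of 234 (64.1%), against 49.8% of all tested genes. Among zinc finger genes of other chromosomes 71.0% lay above 0, with a median of 0.11. The members with the KRAB entry had a median of 0.08, with 146 of 215 above 0, and those without it -0.20, with 4 of 19 above 0. The share above 0 moved with single libraries: without control 2, 67 members lay above 0 with a median of -0.09, and without 15-KETE 3, 103 did with a median of -0.05. With the replicate block and without both libraries numbered 2, 141 lay above 0 with a median of 0.04. For 123 members (52.6%) the whole 95% interval of the log2 fold change was inside a 2-fold difference up or down, against 50.7% of all tested genes. With the replicate block this held for 207 members (88.5%), against 78.5% of all tested genes and 92.5% of zinc finger genes of other chromosomes.

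Counts assigned to the 234 members made up 0.410%, 0.289% and 0.428% of the 15-KETE libraries numbered 1, 2 and 3, and 0.372%, 0.231% and 0.433% of the controls. The groups overlapped, at 0.376% ± 0.0753 in 15-KETE libraries, against 0.345% ± 0.104 in controls (SD, n = 3 each). The Wilson 95% interval of the lowest share, 0.2288% to 0.2328% in control 2, covers counting error only and reaches none of the other libraries' shares. Within both groups the library numbered 2 was the lowest and the library numbered 3 the highest.

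Gene by gene the same order appeared. For each member, the log2 of its counts scaled to the TMM library size (CPM) was set against the member's own mean over the 6 libraries. The median deviation of the 234 members was 0.17, -0.27 and 0.24 in the 15-KETE libraries numbered 1, 2 and 3, against 0.06, -0.47 and 0.27 in the controls. Over all tested genes it lay between -0.02 and 0.02 in every library, but TMM scaling over these same genes holds their bulk near 0. In control 2 the quartiles were -0.75 and -0.09 over the members, and -0.53 and 0.48 over all tested genes. The lowest of the 6 libraries was control 2 for 130 members (55.6%), against 34.0% of all tested genes, and 15-KETE 2 for 43 members (18.4%), against 11.8%. The libraries numbered 2 were the 2 lowest for 124 members (53.0%), against 21.8% of all tested genes, and the libraries numbered 3 were the 2 highest for 89 members (38.0%), against 22.2%. Zinc finger genes of other chromosomes had medians of 0.16, -0.10 and 0.22 in 15-KETE libraries and 0.04, -0.39 and 0.22 in controls, the same order of numbers. KRT7, KRT8 and KRT18, the most abundant epithelial markers listed, were highest in number 2 of both groups, as were KRT5 and EPCAM. KRT17 was highest in number 1 of both groups, at 13.6 FPKM with 15-KETE and 16.07 FPKM in control. KRT19 was highest in 15-KETE 1 and control 2, and CDH1 in 15-KETE 2 and control 3. The part of these differences in the members' order was not tested. In bulk RNA, fewer cells of a type and less RNA per cell cannot be told apart.

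The 19 members without the KRAB entry ran the other way. Their median deviations were -0.05, -0.01 and -0.24 in the 15-KETE libraries numbered 1, 2 and 3, against 0.14, 0.48 and -0.34 in the controls. Control 2 was the highest library for 15 of the 19 and control 3 the lowest for 11, and for 10 of the 19 the libraries numbered 3 were the 2 lowest. ZNF507 was among the exceptions, with control 2 its lowest library at a deviation of -1.12. The other tested genes of chromosome 19 leaned the same way as these 19, with medians of -0.05, 0.13 and -0.17 in 15-KETE libraries and 0.07, 0.29 and -0.26 in controls.

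**Figure D2:**
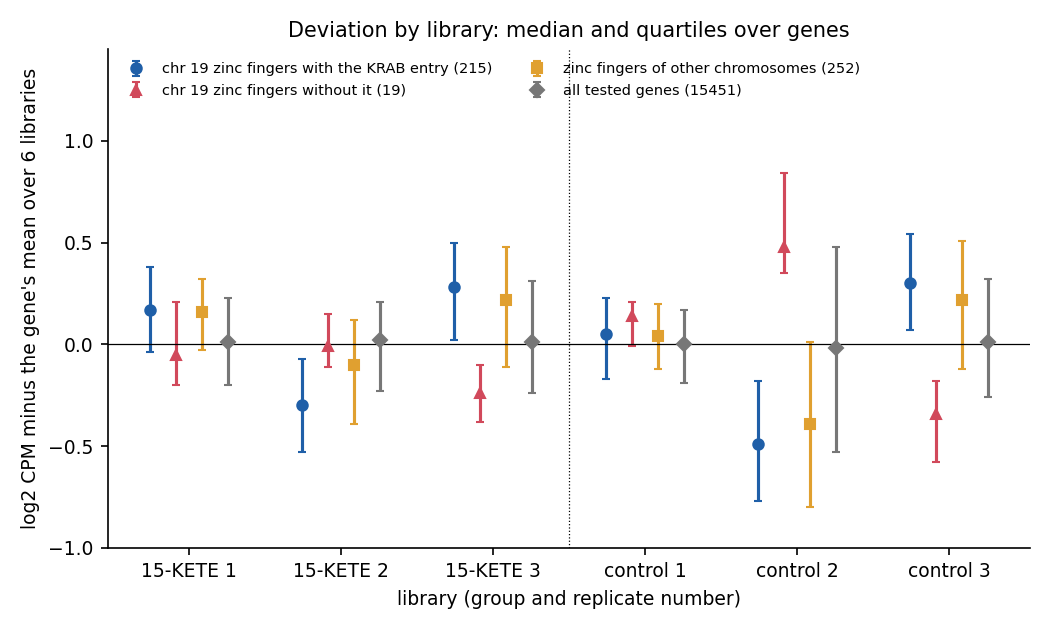
Deviation of log2 CPM from each gene's mean over the 6 libraries, with the median as a symbol and the quartiles as bars, by library. Members with the KRAB entry have medians of -0.30 in 15-KETE 2 and -0.49 in control 2, and members without it 0.48 in control 2. The medians of all tested genes, whose bulk TMM scaling holds near 0, stay within 0.02 of 0.

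Across the 6 libraries a member's deviations correlated with the median deviation of the other members at a median r of 0.761. For 107 members (45.7%) r exceeded 0.8, against 21.2% of all tested genes set against the members' median, and for 48 members it was below 0. Among zinc finger genes of other chromosomes 42.1% exceeded 0.8, with a median r of 0.696. Each r rests on 6 libraries, of which control 2 is the most distant, and is given as a description.

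In the libraries numbered 2 and 3 the members' deviations followed base composition more closely than length. Across the members, which share libraries and ancestry, Spearman's rho between G + C content and deviation was 0.571 in 15-KETE 2 and 0.552 in control 2, and -0.668 in 15-KETE 3 and -0.690 in control 3. With exonic size it was -0.151 in 15-KETE 2, -0.313 in control 2, 0.237 in 15-KETE 3 and 0.233 in control 3. Over all tested genes rho with G + C content was 0.525 and 0.301 in 15-KETE 2 and control 2, and with exonic size -0.118 and -0.401. The relations with base composition and size thus also appeared over all tested genes.

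Members were also classed by the quartiles of their G + C content. Those up to 41.7% had median deviations of -0.45 in 15-KETE 2 and -0.70 in control 2, against -0.36 and -0.40 for the 2864 tested genes of that range. Members between 44.1% and 47.1% had -0.23 in 15-KETE 2 and -0.47 in control 2, against -0.02 and -0.07 for tested genes of that range. Members above 47.1% had 0.04 and 0.15, against 0.14 and 0.16. In these same classes, zinc finger genes of other chromosomes had -0.52 and -0.80, -0.14 and -0.42, and 0.13 and -0.08. The library numbered 2 of either group was the lowest for 53 of the 59 members in the lowest class and for 20 of the 59 in the highest. The members' median log2 fold changes in the 4 classes, from low to high G + C content, were 0.11, 0.12, 0.09 and -0.08. Above 0 lay 74.6%, 81.0%, 63.8% and 37.3% of the members, against 60.4%, 51.8%, 52.8% and 45.0% of all tested genes in those ranges. Of the zinc finger genes of other chromosomes, 80.7%, 78.6%, 73.3% and 62.0% lay above 0.

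By exonic size, members up to 3820 bases had a median deviation of -0.07 in 15-KETE 2 and -0.09 in control 2, and members above 7192 bases -0.31 and -0.57. All tested genes of those sizes had 0.06 and 0.39 in the short class and -0.04 and -0.42 in the long one. Zinc finger genes of other chromosomes had -0.04 and 0.02 in the short class and -0.17 and -0.74 in the long one. In each size class the members lay below the tested genes of like size in both libraries numbered 2, and so did the zinc finger genes of other chromosomes. When a smooth trend on exonic size, fitted on genes that are not members, was taken from each library, the members' medians were 0.12, -0.24 and 0.17 in 15-KETE libraries and 0.08, -0.33 and 0.23 in controls. With G + C content in the trend as well, a correction chosen after seeing the data, they were 0.11, -0.13 and 0.11 in 15-KETE libraries and 0.10, -0.24 and 0.13 in controls. The library numbered 2 of either group was the lowest for 173 members (73.9%) before correction, 160 with length and 147 with both (62.8%), against 45.8%, 40.5% and 38.9% of all tested genes.

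**Figure D3:**
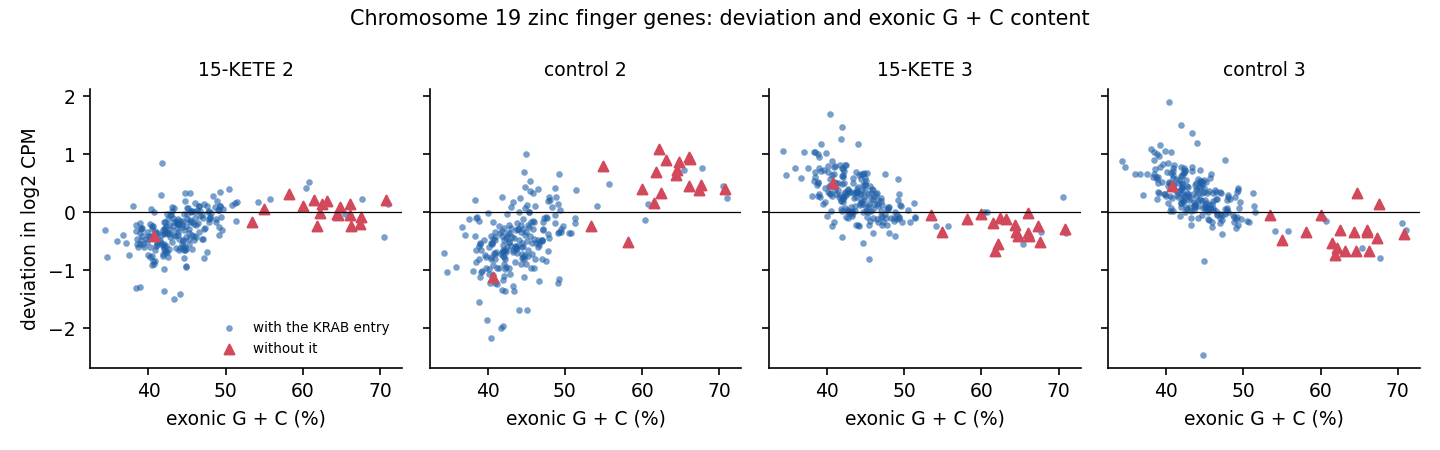
Deviation of log2 CPM from the gene's mean over the 6 libraries against exonic G + C content in percent, 1 point per member, in the libraries numbered 2 and 3 of each group. Points rise with G + C content in 15-KETE 2 and control 2 (rho 0.571 and 0.552) and fall in 15-KETE 3 and control 3 (rho -0.668 and -0.690).

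Within a replicate number, 15-KETE minus control, the members' median log2 difference was 0.13 for number 1, 0.18 for number 2 and -0.02 for number 3. The difference was above 0 for 159, 149 and 105 of the 234 members, against 50.1%, 49.2% and 50.6% of all tested genes. The members without the KRAB entry had medians of -0.09, -0.58 and 0.12 for the 3 numbers. Both sets changed sign at number 3, whose libraries were the most alike of the series, so no direction held in all 3 pairs.

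**Figure D4:**
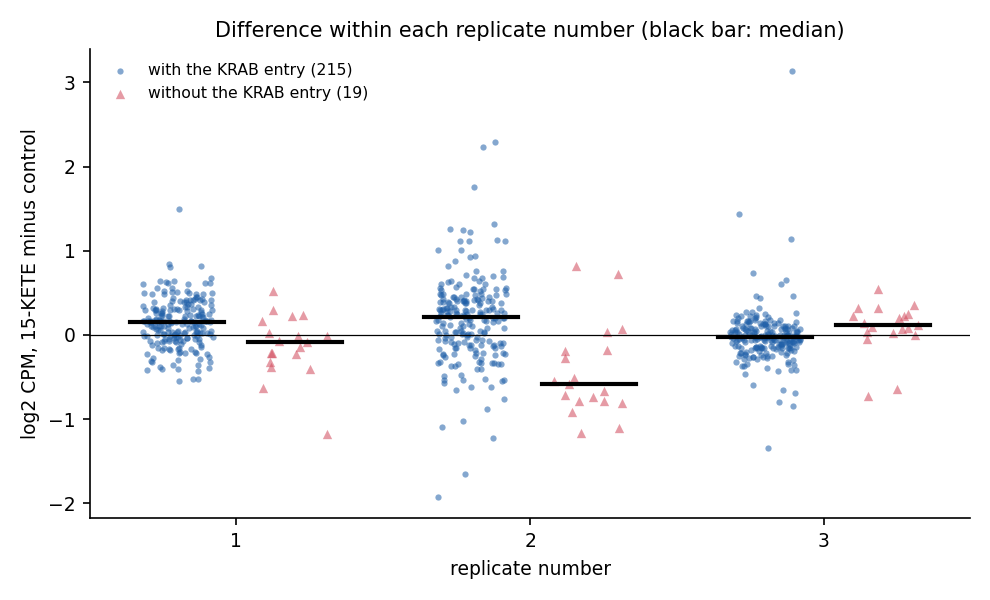
Log2 CPM of the 15-KETE library minus that of the control library of the same number, 1 point per member, with the median as a black bar. Members with the KRAB entry have medians of 0.15, 0.21 and -0.03 for numbers 1, 2 and 3, and members without it -0.09, -0.58 and 0.12.

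The groups did not overlap in CPM for 7 members. ZNF587 was higher in every 15-KETE library than in any control, against 1.22% of all tested genes that were so placed. Lower in every 15-KETE library were 6 members, ZNF266, ZNF844, ZNF490, ZNF506, ZNF575 and ZNF296 (2.56%), against 1.07% of all tested genes. With FPKM, or with no scaling beyond library totals, 2 members had groups that did not overlap.

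ZNF587 on chr19:57849859-57865117 and its neighbour ZNF417 on chr19:57900296-57916610 are close copies whose proteins are known to bind and silence HERV-K proviruses. ZNF587 measured 59.5, 52.3 and 54.8 CPM in the 15-KETE libraries numbered 1, 2 and 3, against 50.5, 23.9 and 49.1 CPM in the controls. The controls numbered 1 and 3 lay just under the lowest 15-KETE library, and control 2 was far below it. The log2 fold change was 0.43 ± 0.31 (SE), with an unadjusted p of 0.2025 by edgeR's quasi-likelihood test and of 0.0304 with the replicate block (adjusted p = 0.6954). Without control 2 it was 0.16, and with the block and without both libraries numbered 2 it was 0.19. ZNF417 measured 23.6, 20.5 and 23.8 CPM in 15-KETE libraries and 18.7, 8.53 and 25.6 CPM in controls, with a log2 fold change of 0.36 ± 0.38 (SE), which was 0.03 without control 2 and 0.75 without control 3. Control 3 was its highest library, so its groups overlapped. Of the 50-base words in ZNF587 transcripts 18.8% also occurred in other genes, with 18.1% in ZNF417, and of those in ZNF417 37.6% did, so reads of the 2 genes can be split between them. ZNF587 also lies within the coordinates of ZNF814, a member on the other strand at chr19:57848731-57889074, and overlaps 1 gene on its own strand. The strand setting of the counting is unknown, so reads of these overlapping genes cannot be told apart.

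ZNF155, a KRAB zinc finger gene of the cluster that begins with ZNF575, measured 11.6, 7.39 and 10.3 CPM in 15-KETE libraries and 8.43, 2.16 and 7.49 CPM in controls. Control 2 was its lowest library, and the lowest 15-KETE library lay within the range of the controls. Its log2 fold change was 0.69 ± 0.47 (SE) without the block and 0.84 ± 0.26 (SE) with it, at an unadjusted p of 0.00783, the smallest of the members, and an adjusted p of 0.6954 by the same edgeR test. Without control 2 it was 0.29, and with the block and without both libraries numbered 2 it was 0.45. ZNF573 measured 4.57, 4.07 and 5.80 CPM in 15-KETE libraries and 2.94, 0.810 and 4.88 CPM in controls. It was higher in the 15-KETE library of every pair, by 0.63, 2.29 and 0.25 on the log2 scale, and its log2 fold change was 0.74 ± 0.55 (SE), or 0.30 without control 2 and 1.37 without control 3. ZNF573 with 15 counts and ZNF155 with 40 counts in control 2 rest on few reads there.

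ZNF575 measured 0.269, 0.619 and 0.434 CPM in 15-KETE libraries and 0.640, 1.08 and 0.737 CPM in controls, from 5 to 20 counts a library. Its 3 15-KETE libraries lay below all 3 controls, with a log2 fold change of -0.87 ± 0.52 (SE) and an unadjusted p of 0.1274 by edgeR. On the log2(FPKM + 1) scale, which understates low genes, it was -0.12. ZNF296 measured 2.04, 2.21 and 1.63 CPM in 15-KETE libraries and 2.56, 3.24 and 2.55 CPM in controls, a log2 fold change of -0.50 ± 0.34 (SE), or -0.29 with the correction for length and G + C content. ZNF428 measured 40.9, 42.9 and 29.4 CPM in 15-KETE libraries and 48.1, 91.7 and 28.0 CPM in controls, a log2 fold change of -0.57 ± 0.41 (SE). That value was -0.01 without control 2, -0.86 without control 3 and -0.29 with the correction for length and G + C content. Its groups overlapped, since control 3 was below every 15-KETE library. These 3 lack the KRAB entry, and their G + C content lay between 62.2% and 67.6%.

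**Figure D5:**
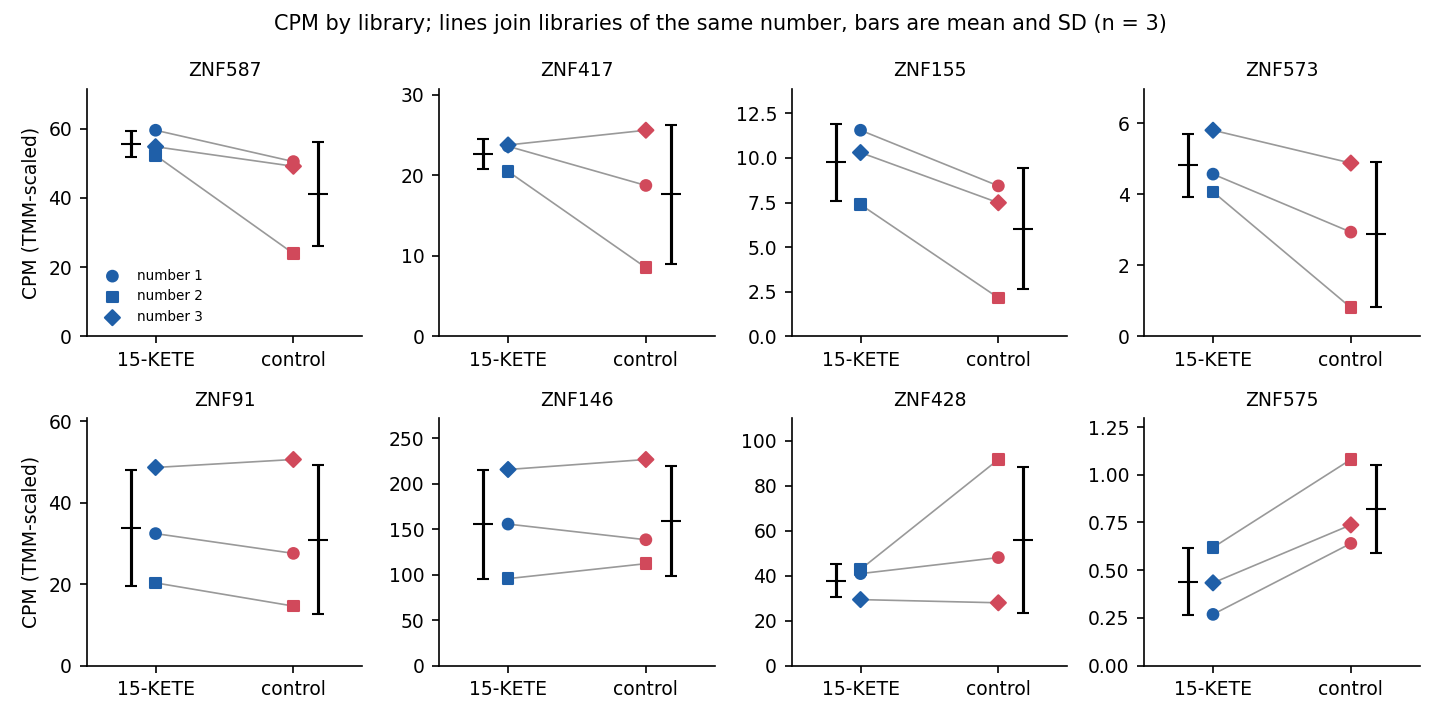
CPM of 8 members by group, with 15-KETE at the left and control at the right of each panel. Grey lines join libraries of the same number, and bars beside the points are the mean and SD (n = 3). Control 2 is the lowest point for ZNF587, ZNF417, ZNF155, ZNF573 and ZNF91 and the highest for ZNF428 and ZNF575.

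For ZNF91, ZNF146, ZNF274, ZNF473 and ZNF331 the log2 fold change was smaller than its standard error. ZNF91, which silences SVA elements, measured 32.5, 20.3 and 48.7 CPM in 15-KETE libraries and 27.6, 14.6 and 50.7 CPM in controls, with a log2 fold change of 0.13 ± 0.47 (SE). ZNF146 measured 155.6, 95.7 and 215.6 CPM against 138.4, 112.1 and 226.6 CPM. In both genes number 3 was the highest and number 2 the lowest of each group. ZNF274, which brings SETDB1 to the 3′ ends of zinc finger genes, measured 54.2, 38.1 and 41.0 CPM in 15-KETE libraries and 46.3, 36.2 and 41.0 CPM in controls. ZNF473, a factor of histone pre-mRNA processing, averaged 46.0 ± 5.46 CPM in 15-KETE libraries and 44.3 ± 8.29 CPM in controls. The imprinted gene ZNF331 averaged 40.7 ± 10.3 and 40.4 ± 11.5 CPM in the same order (SD, n = 3 each). Log2 fold changes of ZNF274, ZNF473 and ZNF331 were 0.11, 0.05 and 0.01, with standard errors of 0.25 to 0.31.

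The 2 longest members ordered the libraries differently. ZNF431 measured 34.8, 28.2 and 46.4 CPM in 15-KETE libraries and 26.5, 18.5 and 49.0 CPM in controls, with number 2 the lowest and number 3 the highest of each group. ZNF814, of 13421 bases, measured 12.5, 15.5 and 16.7 CPM against 13.2, 17.99 and 18.7 CPM, with number 1 the lowest in both groups. Its coordinates hold ZNF587 on the other strand. Among the shortest, ZNF887P measured 2.74, 2.43 and 3.85 CPM in 15-KETE libraries and 2.40, 1.73 and 3.91 CPM in controls, and 40.5% of its 50-base words occurred in other genes. ZNF524, a telomere-binding protein, measured 6.39, 4.73 and 4.18 CPM in 15-KETE libraries and 6.30, 10.6 and 3.52 CPM in controls.

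Along the chromosome the members fell into 16 groups separated by gaps of over 1000000 bases. In the group of 35 members at chr19:51571283-53580269, from ZNF175 to ZNF331 and all with the KRAB entry, the median deviations were 0.30, -0.45 and 0.36 in 15-KETE libraries and 0.11, -0.75 and 0.44 in controls. A library numbered 2 was the lowest for 33 of these 35, and for 27 of the 28 at chr19:36182276-37817300, from ZNF565 to ZNF573. The 7 members at chr19:23075210-24129968, which include ZNF91, had medians of -0.53 in 15-KETE 2 and -0.71 in control 2, and 0.66 and 0.71 in 15-KETE 3 and control 3. The 58 members at the end of the long arm, chr19:55476617-58481230, differed from these, with medians within 0.14 of 0 in every library and a library numbered 2 lowest for 28 of 58. That last group held 9 of the 19 members without the KRAB entry. Its median G + C content was 47.9%, against 42.4%, 41.8% and 39.3% in the groups above, in the order given. The part of base composition in the difference between position groups was not tested.

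Reads of related genes may be shared, and the strand setting of the counting is unknown, so reads of overlapping or antisense genes cannot be told apart. The median member shared 2.39% of its 50-base words with another gene, 47 members shared over 10%, and 131 members overlapped a gene on the other strand. In the 57 members with no overlapping gene and at most 10% shared words, the median log2 fold change was 0.05 with 36 above 0. Their median deviations were 0.16, -0.22 and 0.14 in 15-KETE libraries and 0.07, -0.44 and 0.19 in controls, and a library numbered 2 was the lowest for 43 of them.

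The partners through which KRAB proteins act did not pass the test either. Of 35 corepressor genes listed, 34 were tested and 0 were called, without or with the block, against 0% of all tested genes. At an unadjusted p under 0.05 in edgeR's test stood 0 of them without the block, against 0.162% of all tested genes. With the block 1 did, the HP1 gene CBX5, against 4.71% of all tested genes. A log2 fold change above 0 was found for 21 of the 34, against 49.8% of all tested genes, and the list's median was 0.06. TRIM28 measured 78.47, 106.82 and 75.93 FPKM in 15-KETE libraries and 87.3, 115.46 and 71.72 FPKM in controls, a log2 fold change of -0.18 ± 0.33 (SE), and was highest in number 2 of both groups. SETDB1 measured 7.63, 6.83 and 7.88 FPKM in 15-KETE libraries and 7.21, 4.31 and 7.33 FPKM in controls, a log2 fold change of 0.19 ± 0.24 (SE). MBD3, a NuRD subunit, had the smallest p of the list (0.2851, unadjusted, edgeR), with 7.11, 9.25 and 7.52 FPKM in 15-KETE libraries and 8.18, 13.95 and 6.99 FPKM in controls. The list's median deviation stayed between -0.10 and 0.04 in all 6 libraries, but its genes went both ways. Control 2 was the lowest library for 16 of the 34 and the highest for 13, against 34.0% and 34.5% of all tested genes, which went both ways there too. CBX5 deviated by -1.21 and MBD3 by 0.94 in control 2.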

How the data were processed

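The authors deposited 1 table with a raw read count and an FPKM value per gene and library, per the file headers. Per the labels' protocols, SMARTer mRNA libraries were prepared. HISAT2 2.2.1, HTSeq 0.6.1 and cutadapt 1.9.1 are among the tools listed in the submitters' processing notes, without roles. The strand setting and the build were not given in the sources used here. Coordinates are the table's, counted from 1, and 200 of the 234 members had the same start or end in GENCODE release 29 on GRCh38. The deposited FPKM lay within 0.01 of those recomputed from count, exonic size and library total for 100% of values.

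Counts were fitted with edgeR 4.0.16 in R 4.3.3 after filterByExpr and TMM scaling, over all 6 libraries, and p-values were adjusted by Benjamini-Hochberg with a threshold of 0.05. CPM are TMM-scaled, and deviations used a prior count of 0.5. Same-numbered libraries correlated in their deviations from the group means at 0.541, 0.619 and 0.695. Different numbers gave -0.543 to -0.0864, values that centring on the group means in part forces below 0. From the same-number values, the numbers, which come from the sample titles, were taken to pair the libraries, which no label states. No 2 libraries were identical or agreed within sampling noise. The most alike were 15-KETE 3 and control 3, with a chi-square per gene of 2.389. The next were 15-KETE 1 and control 1, at 10.29. G + C content came from GENCODE transcripts and was known for 15219 tested genes (98.5%). Alternatives were DESeq2 1.42.0, limma-trend 3.58.1 on log2(FPKM + 1), other scaling and filters, the replicate block, length corrections with mgcv 1.9.3, and leaving out libraries. The fits were tested on simulated data.

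The members and lists were chosen with earlier results of these data known. Named members were the 5 of highest mean FPKM, the 5 of smallest p, the 3 of smallest p with the block, the 2 longest and 2 shortest, and 8 taken for their known role. In the corepressor list TRIM28, SETDB1 and the gene of smallest p were named. CBX5, ZNF507, ZNF625, ZNF20, ZNF497, ZNF347 and the members whose groups did not overlap were named after their values were seen or as the edge of the count rule.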

Additional observations from a re-analysis of the deposited data

How the results depend on the processing

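Under all alternatives run, no member and no corepressor gene was called. Over all tested genes 0 were called, except that the replicate block gave 1 without both libraries numbered 1 and 13 without both numbered 3. The replicate block changed no other call. The members' median log2 fold change ran from 0.03 to 0.18, with 130 to 178 members above 0, over the settings that kept all 6 libraries or left out a pair. With no scaling the median of all tested genes itself stood at 0.07. Leaving out 1 library gave medians from -0.09 to 0.23 and from 67 to 179 members above 0, with the lowest values without control replicate 2. Members whose groups do not overlap numbered 2 with FPKM and 2 with no scaling. The count rule would have given 220 members with 10 counts in all 6 libraries and 257 with at least 1 count, and their median exonic size 5624.5 and 5500 bases.
Among the 20 named members, 11 changed the sign of a log2 fold change in 46 of 398 values, none of which was called, and the cause was not tested. With the length correction ZFP36 had 0.00, ZNF331 -0.10, ZNF473 -0.02 and ZNF274 -0.01, and with the replicate block as well 0.00, -0.11, -0.02 and -0.02. With length and G + C the same 4 had 0.03, -0.09, -0.03 and -0.01, and with the replicate block as well 0.03, -0.11, -0.03 and -0.03, while ZNF581 without the block had 0.05. ZNF146 had 0.03 with no scaling and 0.04 with limma-trend, and ZNF331 had -0.01 with DESeq2 size factors and with DESeq2. With the replicate block and without both libraries numbered 2, ZNF146 had 0.04, ZNF317 -0.07, ZNF581 0.19, ZNF524 0.11, ZNF331 0.00 and ZNF473 -0.06, and without both numbered 1 ZNF331 had -0.04. Leaving out 1 library gave -0.34 to 0.34 for ZNF146, -0.04 to 0.33 for ZNF317, -0.23 to 0.06 for ZFP36, -0.62 to 0.12 for ZNF581, -0.05 to 0.72 for ZNF431 and -0.07 to 0.56 for ZNF887P. It gave -0.71 to 0.05 for ZNF524, -0.20 to 0.22 for ZNF331, -0.04 to 0.22 for ZNF473, -0.24 to 0.70 for ZNF91 and -0.05 to 0.21 for ZNF274. Depth limits the members below 1 FPKM most, where a library can hold fewer than 10 counts.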
